A study of Eucalyptus globulus and Eucalyptus grandis with 36 samples.

Results

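The genes described here are the glutathione transferases and redox enzymes in stems of Eucalyptus globulus and Eucalyptus grandis, a pair of tree species planted for wood pulp. They were chosen by their deposited description, which had to name glutathione, thioredoxin, glutaredoxin, ascorbate peroxidase, superoxide dismutase or catalase. The rule found 124 of the 11827 genes listed in any of the 8 deposited tables, and used no expression value. Of these, 62 were glutathione transferases, made up of 45 of the tau class, 5 phi, 2 lambda, 1 microsomal and 9 whose class the description does not give. The other 62 were 17 proteins described only as thioredoxin superfamily, 10 glutaredoxins, 8 thioredoxins, 2 thioredoxin reductases, 8 glyoxalase I proteins, 6 ascorbate peroxidases, 5 catalases, 3 glutathione peroxidases and 3 superoxide dismutases.

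The plants were seedlings, raised from clonal seed, that were 6 months old and stood about 25 cm high when they entered the chambers. They stayed there for 35 days under 10 h of daily light. The labels give 12 groups of 3 samples. For each species these are 10 °C (chambers at 10 to 12 °C), 20 °C (22 to 24 °C) and 30 °C (33 to 35 °C), each in elevated CO2 (700 ppm) and in ambient CO2 (390 ppm by the protocol and 400 ppm by the series' design). Each species has its 20 °C group in ambient CO2 as control. No genotype or line is named beyond the species, and nothing in the labels says whether a group's plants shared a chamber, so an effect of a chamber and of its treatment cannot be told apart. Elevated CO2 at 20 °C in E. grandis was not analysed here.

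The tables hold 1 normalized value per gene and group on a log2 scale, with a floor of 0, for genes that passed the authors' test. No value per sample, error or depth stands in them, so each value below is 1 group value with no SD, no test was run on it, and its depth is unknown. A gene is called higher or lower where the authors' tables list it and its group values lie at least 1 apart on log2, which is 2-fold. In the tables of 3 temperatures the authors' test covers the 3 groups together and not each pair. A gene with no value in a group was not selected for that table, and this says nothing about its level. Shares of members are set beside the same share of all 11827 listed genes, which were themselves selected for change, so that share is only a reference point. In whole stems, fewer cells of a type and less RNA per cell cannot be told apart.

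Many glutathione transferases join the tripeptide glutathione to reactive organic compounds, after which vacuolar transporters can store the conjugate. The tau and phi classes are the large, stress-responsive plant classes. Thioredoxins and glutaredoxins reduce disulfide bonds of other proteins, with electrons from ferredoxin or NADPH for thioredoxins and from glutathione for glutaredoxins. Superoxide dismutases turn superoxide into hydrogen peroxide, which catalases, ascorbate peroxidases and the peroxidases of the glutathione peroxidase family then remove. Glyoxalase I acts on the glutathione adduct of methylglyoxal, a toxic by-product of sugar metabolism.

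E. globulus gave nearly all of the changed members, and also most of the changed genes among all listed. In comparisons within a species, 113 members differed in E. globulus and 24 in E. grandis, of which 18 differed in both; the other 5 were listed only in a table that pairs the species. Among glutathione transferases these numbers were 56 in E. globulus, 10 in E. grandis and 7 in both. Among the other redox genes they were 57, 14 and 11. Over all listed genes at 10 °C in ambient CO2, 3721 differed in E. globulus and 378 in E. grandis, with 188 in both. At 30 °C in elevated CO2 these numbers were 5445, 984 and 425. The lean towards E. globulus was thus not particular to the members. A difference between the species was not tested. Thioredoxin superfamily gene Eucgr.K03442 differed in the most comparisons, 9 of the 11 within species, and among glutathione transferases TAU 19 gene Eucgr.L01482 did, in 6.

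**Figure D1:**
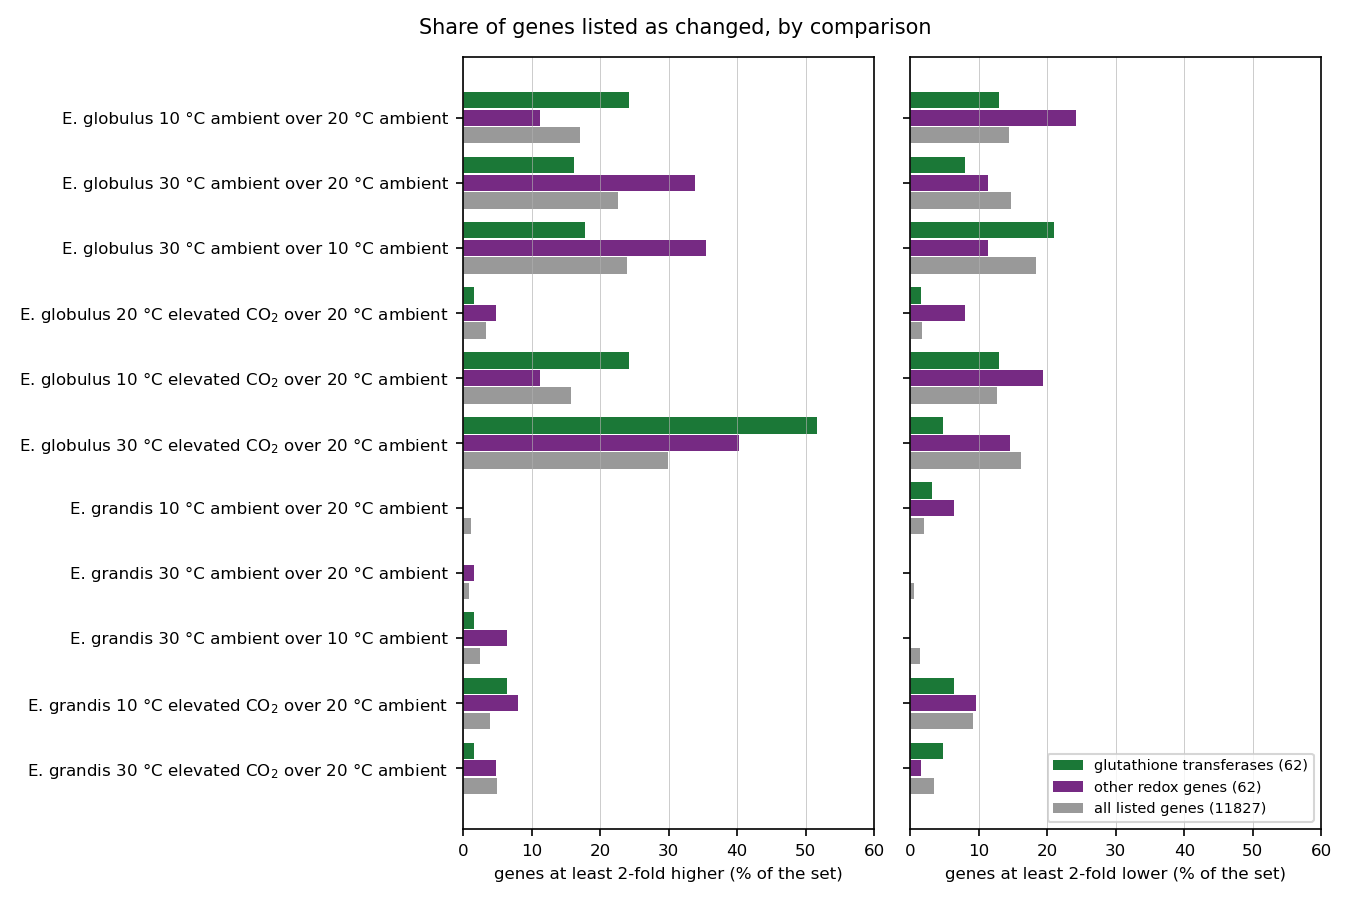
Share of each gene set at least 2-fold higher (left panel) or lower (right panel), in percent of 62 glutathione transferases (green), 62 other redox genes (purple) and all 11827 listed genes (grey), for the 11 comparisons within species. The longest bar is that of glutathione transferases in E. globulus at 30 °C in elevated CO2, 51.6% higher against 29.9% of all listed genes.

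Glutathione transferases had their largest share of higher members in E. globulus at 30 °C in elevated CO2. Against the 20 °C ambient control, 32 of the 62 were higher (51.6%, against 29.9% of all listed genes) and 3 were lower (4.84%, against 16.2%). Over the 34 changed members with no group at 0, the median log2 difference was 2.60, a 6.07-fold size, against 1.29 over all genes changed in this comparison. Tau genes, which are 45 of the 62, made up 31 of the 35 changed members, 29 of them higher, by 2.11- to 80.9-fold where no group was at 0. The microsomal gene Eucgr.F02921 was also higher, at 12.08 against 10.75 in the control (2.52-fold), and lambda 1 gene Eucgr.A01199 lower, at 4.02 against 5.05 (2.04-fold). Temperature and CO2 both differ in this comparison, so it does not separate them.

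The highest difference was that of tau 7 gene Eucgr.H02578, with 9.42 at 30 °C in elevated CO2 and 3.08 in the control, 80.9-fold higher. It ends 51.2 kb from TAU 8 gene Eucgr.H02573, which had a value in every E. globulus group. Eucgr.H02573 was at 2.72, 2.49 and 9.27 at 10, 20 and 30 °C in elevated CO2, and at 2.38, 4.86 and 4.66 at the same temperatures in ambient CO2. Thus it was 21.2-fold higher than the control at 30 °C in elevated CO2 and 5.19-fold lower at 20 °C in elevated CO2. Set against 30 °C in ambient CO2, its value at 30 °C in elevated CO2 was 24.5-fold higher, while 30 and 20 °C in ambient CO2 differed by less than 2-fold.

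Many glutathione transferases lay near each other: 39 of 62 (62.9%) ended within 100 kb of a listed gene with the same description, against 3280 of 9802 described genes (33.5%), and 48 of the 62 (77.4%) stood within 100 kb of another member, against 16 of the 62 other redox genes (25.8%). The loci named next were picked out after their values had been seen, and other tau loci differ: of the neighbouring TAU 8 genes Eucgr.H03905 and Eucgr.H03907, both were lower at 10 °C in elevated CO2 and the first was lower at 30 °C in elevated CO2. Such near copies share sequence, and the counting of reads that match more than 1 copy is not described in the sources, so the values within a locus may not be independent.

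At the tau 9 locus, 4 genes from Eucgr.B00494 to Eucgr.B00499 end within 28.0 kb, and all 4 were higher at 30 °C in elevated CO2. Eucgr.B00499 was at 6.60, against 1.16 in the control, 43.5-fold higher. Eucgr.B00496 was at 6.41, against 1.26, and Eucgr.B00498 at 4.78, against 1.15, 35.3- and 12.4-fold higher. Eucgr.B00494 was the least different, at 4.60 and 3.48, 2.17-fold higher, and was also the one member of the locus listed at 30 °C in ambient CO2, at 5.04. Thus 3 of the 4 had control values near the floor of the scale, where a fold is least certain.

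At the tau 7 locus, the 4 genes Eucgr.D00022 to Eucgr.D00025 end within 27.4 kb and moved by a similar size. Their values at 30 °C in elevated CO2 were 7.95, 8.43, 8.48 and 9.47 in that order, against 5.03, 5.20, 4.82 and 6.58 in the control. All 4 were higher, by 7.56-, 9.41-, 12.6- and 7.43-fold. None of the 4 was listed in the table of 3 temperatures in ambient CO2.

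The largest locus held 8 TAU 8 genes from Eucgr.K03019 to Eucgr.K03039 over 219 kb, and its members did not all move alike. At 30 °C in elevated CO2, 6 were higher and Eucgr.K03039 was lower, at 1.19 against 5.37 in the control, 18.2-fold. Of the higher ones, Eucgr.K03034 was at 9.47 against 6.56 (7.50-fold) and Eucgr.K03019 at 5.42 against 4.02 (2.64-fold). Eucgr.K03036, the eighth, was not listed there but was lower in the cold, at 8.34 at 10 °C against 10.09 in the control (3.37-fold). Eucgr.K03019 also went opposite ways with temperature in ambient CO2, at 3.00, 4.02 and 5.56 at 10, 20 and 30 °C.

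**Figure D2:**
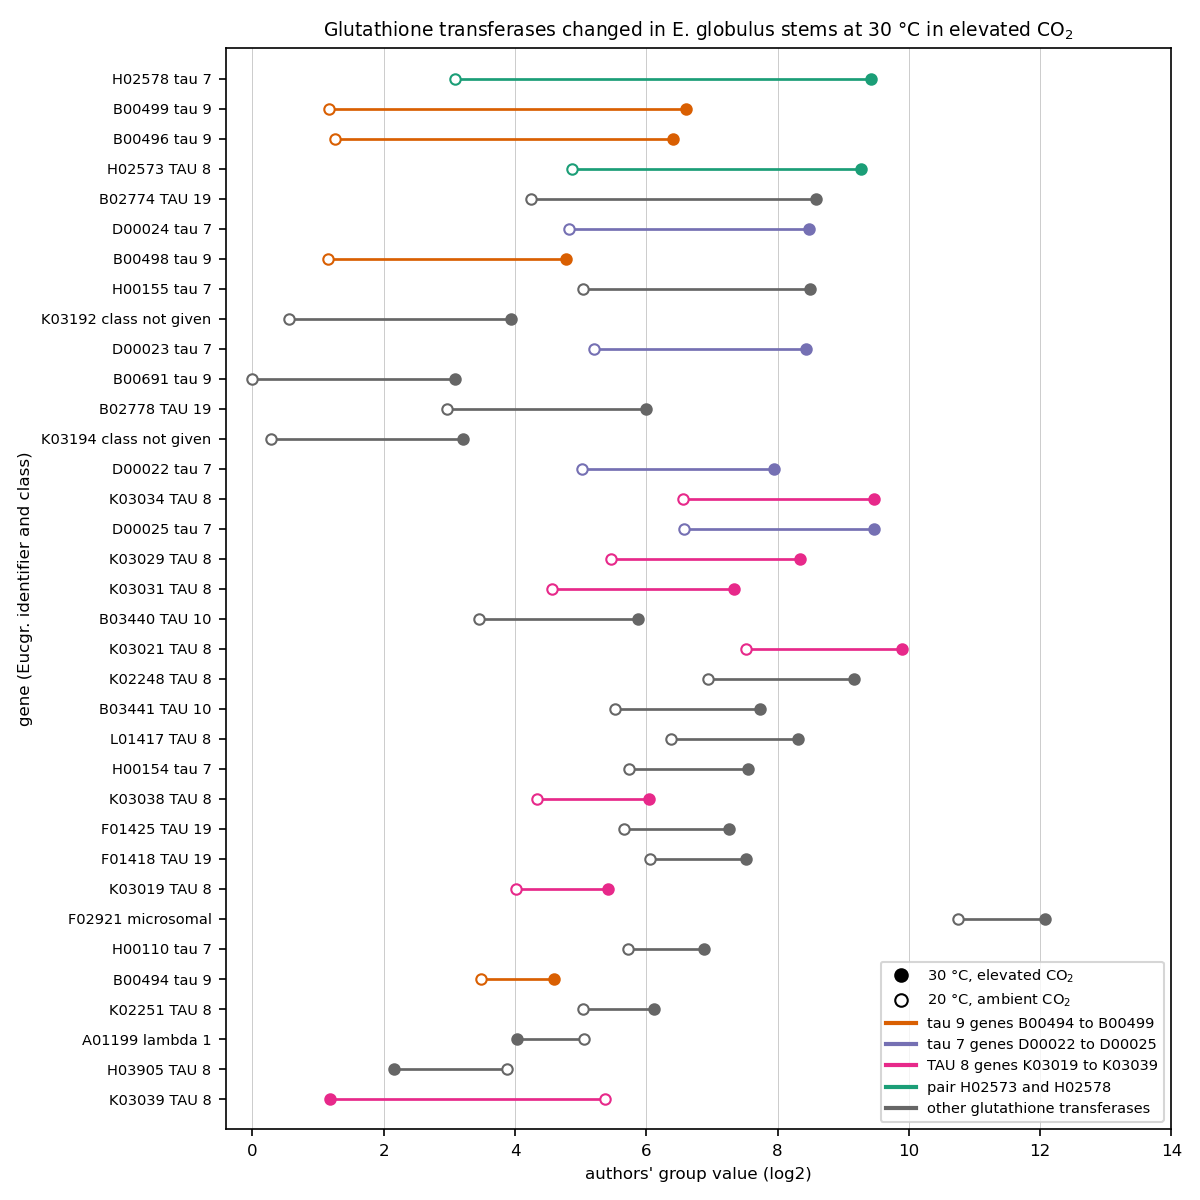
Authors' group values (log2, x axis) of the 35 glutathione transferases that differed in E. globulus stems at 30 °C in elevated CO2 (filled points) from 20 °C in ambient CO2 (open points), ordered by difference, 1 gene a row, with lines coloured by locus. In 32 rows the filled point lies to the right; Eucgr.K03039, Eucgr.H03905 and Eucgr.A01199 are the 3 that lie to the left.

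With temperature alone, 15 glutathione transferases differed at 30 °C. At 30 °C in ambient CO2, 10 were higher than at 20 °C (16.1%, against 22.7% of all listed genes) and 5 were lower (8.06%, against 14.8%). The highest was TAU 19 gene Eucgr.B02778, at 5.48 against 2.97 in the control, 5.68-fold higher; it was also higher at 10 °C (4.20) and at 30 °C in elevated CO2 (6.00). The lowest was TAU 8 gene Eucgr.H03905, at 1.36 against 3.87, 5.70-fold lower, which was listed at 0 at 10 °C in both CO2 concentrations. Between the 2 CO2 concentrations at 30 °C, 16 glutathione transferases had both values: 6 were at least 2-fold higher in elevated CO2, 1 was lower and the median log2 difference was 0.85. Over the 3486 genes with both values, 16.7% were at least 2-fold higher, 8.61% were lower and the median was 0.07. These values come from separate tables, in which repeated group values are equal, and only genes selected in both can be set side by side.

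In the cold, 15 glutathione transferases were higher in E. globulus in ambient CO2, and 12 of these were tau genes. The tau class holds 45 of the 62, and its share of higher genes, 26.7%, was near that of all glutathione transferases, 24.2%. At 10 °C in ambient CO2, 15 were higher than at 20 °C (24.2%, against 17.1% of all listed genes) and 8 were lower (12.9%, against 14.4%), with a median log2 difference of 1.23 over the 21 changed members with no group at 0, against 1.05 over all changed genes. At 10 °C in elevated CO2 the counts were again 15 higher and 8 lower, beside 15.8% and 12.7% of all listed genes. TAU 25 gene Eucgr.F01416 was at 7.93 at 10 °C in elevated CO2 and at 7.27 at 10 °C in ambient CO2, against 4.71 in the control, 9.27- and 5.90-fold higher, and at 4.61 at 30 °C. Eucgr.K03192, of no given class, was at 2.76 and 3.84 at 10 °C in elevated and in ambient CO2, against 0.56 in the control, 4.60- and 9.71-fold higher, and it was also higher at 30 °C in elevated CO2 (3.94) and in ambient CO2 (3.03). Tau 7 gene Eucgr.G02603 was at 3.94 at 10 °C and listed at 0 at 20 and 30 °C. Against 10 °C, the 30 °C group had 11 glutathione transferases higher and 13 lower (17.7% and 21.0%, beside 23.9% and 18.4% of all listed genes).

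Between the CO2 concentrations at 10 °C, differences of 2-fold were few. Of the 18 glutathione transferases with a value in both 10 °C groups, none was 2-fold higher in elevated CO2 and 1, Eucgr.K03192, was 2.11-fold lower; the median log2 difference was 0.29. Over the 2555 genes with both values, 5.40% were higher and 4.03% lower. At 20 °C, elevated CO2 gave 1 higher and 1 lower glutathione transferase, beside 3.31% and 1.72% of all listed genes. The higher one was Eucgr.K03509, at 4.86 against 3.53, 2.52-fold, and the lower one Eucgr.H02573, given above. Tau 7 gene Eucgr.H00110 went opposite ways at 10 and 30 °C: it was at 6.88 at 30 °C in elevated CO2, 2.23-fold above the control, and at 7.32, 5.73 and 4.43 at 10, 20 and 30 °C in ambient CO2.

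Of the 5 phi-class genes, 3 were lower and none higher at 10 °C in E. globulus, beside 14.4% and 17.1% of all listed genes. The phi 9 genes Eucgr.K01231, Eucgr.K01233, Eucgr.K01234 and Eucgr.K01237 end within 51.7 kb, and in E. globulus the 3 that were listed were lower at 10 °C, by 2.10- to 2.22-fold. In E. grandis, Eucgr.K01231 was at 8.13 at 10 °C in elevated CO2 and 7.89 at 10 °C in ambient CO2, against 9.26 in the control, 2.19- and 2.58-fold lower. Eucgr.K01233 was also lower in E. grandis at 10 °C in elevated CO2, at 7.24 against 8.46, 2.33-fold. Phi 12 gene Eucgr.F02915, whose Arabidopsis counterpart carries anthocyanins and proanthocyanidin precursors to the vacuole, was at 11.01 and 11.92 in E. grandis at 10 and 30 °C in elevated CO2, against 9.01 in its control, 4.01- and 7.54-fold higher. In E. globulus the same gene was at 8.46, 9.25 and 8.19 at 10, 20 and 30 °C in ambient CO2, 2.08-fold lower at 30 °C than in the control.

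The other redox genes were more often higher than lower at 30 °C in E. globulus. In all, 21 of the 62 were higher at 30 °C in ambient CO2 (33.9%, against 22.7% of all listed genes) and 7 lower (11.3%, against 14.8%), with a median log2 difference of 1.29 over the 25 with no group at 0, against 1.17 over all changed genes. At 30 °C in elevated CO2, 25 were higher (40.3%, against 29.9%) and 9 lower (14.5%, against 16.2%). Ascorbate peroxidase 2 gene Eucgr.A01180, whose Arabidopsis counterpart is a cytosolic enzyme known for its response to heat and strong light, was at 14.14 at 30 °C in elevated CO2, and at 9.34, 8.42 and 11.85 at 10, 20 and 30 °C in ambient CO2. It was 52.6-fold above the control at 30 °C in elevated CO2 and 10.8-fold above it at 30 °C in ambient CO2, a 4.88-fold difference between the CO2 concentrations. Of the other ascorbate peroxidases, Eucgr.C01740 (type 6) was at 7.19 at 30 °C in elevated CO2, against 8.34, 2.21-fold lower. Type 4 gene Eucgr.F00373, whose Arabidopsis counterpart lies in the thylakoid lumen, was at 9.65 at 30 °C against 8.65 at 10 °C, just at the 2-fold limit, and Eucgr.E00522 (type 3) differed only in E. grandis, at 5.50 at 10 °C in elevated CO2 against 4.05, 2.72-fold higher.

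The 5 catalase genes all carry the description catalase 2, a peroxisomal enzyme that removes the hydrogen peroxide of photorespiration, but their values went 2 ways. Eucgr.F03557 was at 12.35 at 30 °C in elevated CO2 and at 9.65, 9.46 and 11.38 at 10, 20 and 30 °C in ambient CO2, so that its 30 °C values lay 7.38-fold (elevated CO2) and 3.76-fold (ambient CO2) above the control. Eucgr.L01419 was at 5.14 and 6.94 at 10 and 30 °C in elevated CO2 and at 4.95, 3.97 and 5.87 at 10, 20 and 30 °C in ambient CO2, with 30 °C values 7.84-fold (elevated CO2) and 3.71-fold (ambient CO2) above the control. Eucgr.F01775 and Eucgr.F01776, whose ends lie 17.8 kb apart, were lower at 30 °C in elevated CO2: Eucgr.F01775 was at 11.76 against 13.06 (2.47-fold) and Eucgr.F01776 at 14.98 against 16.09 (2.17-fold). Eucgr.F01775 was lower in E. grandis too, at 12.21 and 11.94 at 10 and 30 °C in elevated CO2 against 13.59, by 2.60- and 3.13-fold. The fifth, Eucgr.F03561, was 2.30-fold higher at 10 °C, at 6.10 against 4.90.

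Superoxide dismutases made up 2 of the 3 other redox genes that were higher in elevated CO2 at 20 °C. Both genes for Fe superoxide dismutase 2, a chloroplast enzyme in Arabidopsis, were higher in every elevated CO2 group of E. globulus that lists them. Eucgr.L03200 was at 9.91 at 20 °C and 9.10 at 30 °C in elevated CO2, against 5.69 in the control, 18.6- and 10.6-fold higher. Eucgr.K00110 was at 10.31, 10.75 and 11.57 at 10, 20 and 30 °C in elevated CO2, against 9.27 in the control, 2.06-, 2.79- and 4.94-fold higher. Neither gene was listed in the table of 3 temperatures in ambient CO2. Cu/Zn superoxide dismutase 1 gene Eucgr.H04426 was at 14.44 at 30 °C in elevated CO2, 2.42-fold above the control, and at 12.47, 13.17 and 13.86 at 10, 20 and 30 °C in ambient CO2.

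**Figure D3:**
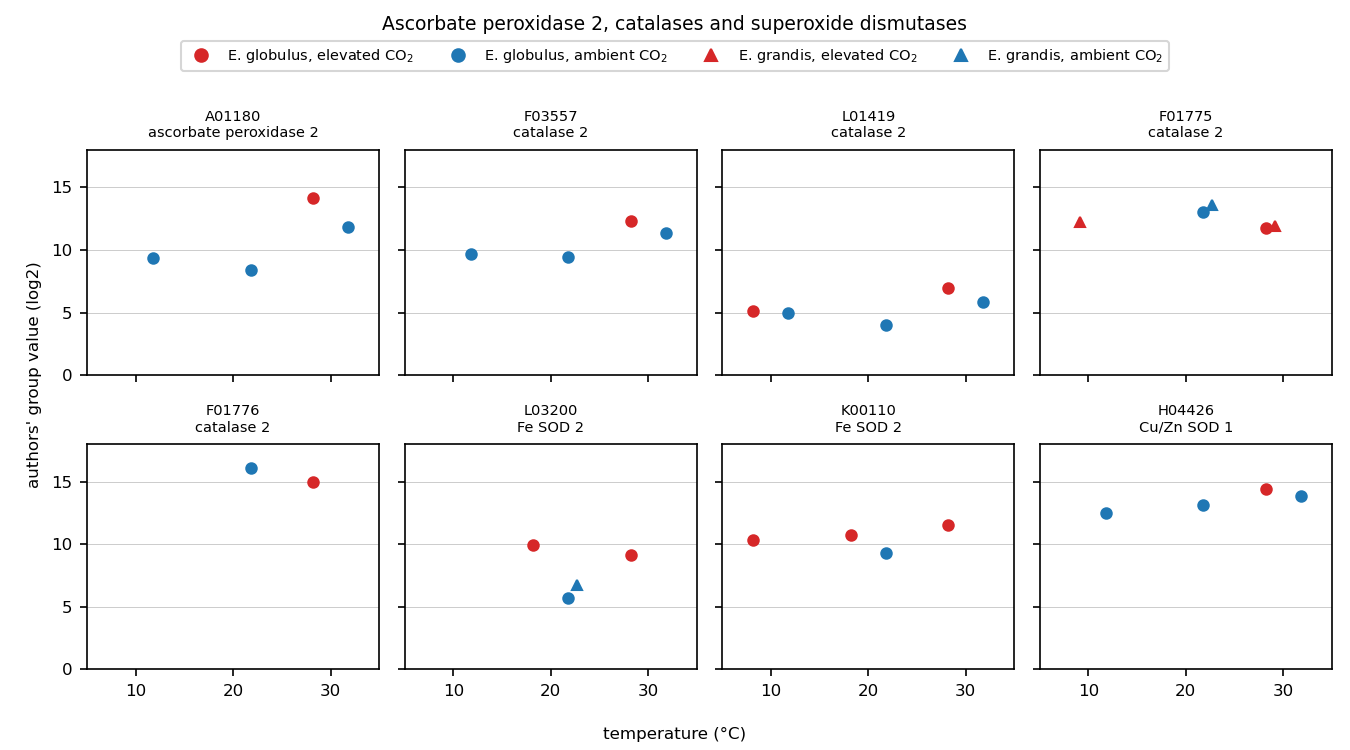
Authors' group values (log2, y axis) by temperature for 8 genes that remove superoxide or hydrogen peroxide, in elevated CO2 (red, left) and ambient CO2 (blue, right) in E. globulus (circles) and E. grandis (triangles); a missing point means that the gene is not listed with that group. Ascorbate peroxidase 2 (Eucgr.A01180) reaches 14.14 at 30 °C in elevated CO2, Eucgr.F01775 and Eucgr.F01776 lie below their controls there, and both Fe superoxide dismutases lie above their controls in elevated CO2.

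The glyoxalase I members listed as changed at 30 °C in E. globulus were all higher. They were 6 of the 8 in elevated CO2, beside 29.9% of all listed genes, and 5 of the 8 in ambient CO2, beside 22.7%. Glyoxalase genes outside the rule went both ways at 30 °C in elevated CO2. Eucgr.F00748 was higher, at 7.90 against 6.42, and Eucgr.C00588 lower, at 5.33 against 6.34. Eucgr.F02538 was higher in both species. In E. globulus it was at 11.63 and 11.88 at 10 and 30 °C in elevated CO2, and at 11.17 at both temperatures in ambient CO2, against 9.33 in the control. These lay 4.90-, 5.85-, 3.57- and 3.57-fold above the control. In E. grandis it was at 11.73 and 11.44 at 10 and 30 °C in elevated CO2, against 10.05, 3.19- and 2.62-fold higher. Eucgr.J03055 was at 8.51 at 30 °C in elevated CO2 and at 3.55, 4.19 and 6.33 at 10, 20 and 30 °C in ambient CO2, with 30 °C values 19.9-fold (elevated CO2) and 4.39-fold (ambient CO2) above the control. Eucgr.C01137 and Eucgr.C04184 were both at 6.32 at 30 °C in elevated CO2 and listed at 0 in the control. Of the 3 glutathione peroxidases, Eucgr.D01857 (type 6) was at 10.64 at 30 °C in elevated CO2 and 9.71 at 30 °C, against 8.45 in the control, 4.56- and 2.40-fold higher, while Eucgr.A00257 (type 3) was lower, at 5.04 and 5.20 against 6.29.

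Among the other redox genes, more were lower than higher in the cold. At 10 °C in ambient CO2 in E. globulus, 7 of the 62 were higher (11.3%, against 17.1% of all listed genes) and 15 lower (24.2%, against 14.4%), with a median log2 difference of −1.19 over the 21 with no group at 0, against 1.05 over all changed genes. Counted once per description, they were 3 higher and 3 lower. Thioredoxin superfamily proteins made up 7 of the 15 lower ones, glutaredoxins 4 and thioredoxins 3. At 10 °C in elevated CO2 the other redox genes had 7 higher and 12 lower, beside 15.8% and 12.7%, and 3 and 3 counted once per description. None of the 16 with values in both 10 °C groups differed 2-fold between the CO2 concentrations. Against 10 °C, the 30 °C group had 22 of them higher (35.5%, against 23.9%) and 7 lower (11.3%, against 18.4%).

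The 5 other redox genes that were lower in elevated CO2 at 20 °C were all lower at 10 °C too. The same overlap was not counted over all listed genes, so it cannot be called particular to these. Several of the values lie near the floor of 0, where a fold is least certain. Eucgr.H03861, a thioredoxin superfamily gene, was at 1.43, 1.04 and 2.56 at 10, 20 and 30 °C in elevated CO2, and at 0.96, 4.83 and 4.05 at the same temperatures in ambient CO2. It was thus lower than the control in every elevated CO2 group, by 10.6-, 13.9- and 4.81-fold, and 14.6-fold lower at 10 °C in ambient CO2. Eucgr.H01200 gave the same order, at 5.31, 4.74 and 6.01 in elevated CO2 and 4.61, 7.39 and 7.26 in ambient CO2 at 10, 20 and 30 °C; its values in elevated CO2 were 4.22-, 6.28- and 2.59-fold below the control. Eucgr.B01275 was at 0.56 at 10 °C against 4.12 in the control, 11.8-fold lower, and listed at 0 at 20 °C in elevated CO2, while the neighbouring glutaredoxin gene Eucgr.B01274 was at 2.42 and 3.76 in those groups against 4.80, 5.21- and 2.06-fold lower. The fifth was Eucgr.K03442. At 20 °C in elevated CO2, 5 of the other redox genes were lower and 3 higher (8.06% and 4.84%, beside 1.72% and 3.31% of all listed genes), and 2 and 2 counted once per description. With genes under 5 on log2 in both groups left out, 2 were lower and 3 higher. All comparisons with the control share its samples, so these drops are not independent of each other.

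Eucgr.K03442 could be followed in both species, and its order with temperature in ambient CO2 was the same in both. In E. globulus it was at 4.26 and 3.92 at 10 and 20 °C in elevated CO2, and at 5.12, 7.33 and 8.62 at 10, 20 and 30 °C in ambient CO2. In E. grandis it was at 2.23 at 10 °C in elevated CO2, and at 2.24, 5.47 and 6.95 at 10, 20 and 30 °C in ambient CO2. The 30 °C value was 11.3-fold above the 10 °C value in E. globulus and 26.1-fold above it in E. grandis. The description names only the thioredoxin superfamily, so its activity is not known from the files.

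Thioredoxins with a named type were followed in both species. Both genes for ACHT4, an atypical chloroplast thioredoxin that acts on starch synthesis in Arabidopsis, were lower at 10 °C. At 10 °C in elevated CO2, Eucgr.K02483 was at 7.97 in E. globulus and 7.93 in E. grandis, 3.66- and 5.00-fold below the controls. In ambient CO2 it was at 7.97, 9.84 and 11.20 at 10, 20 and 30 °C in E. globulus, and at 8.24, 10.25 and 10.66 in E. grandis, so that the 10 °C values lay 3.66- and 4.04-fold below the controls. Eucgr.A02077 was at 11.03, 12.40 and 12.74 in E. globulus and at 11.20, 12.58 and 13.00 in E. grandis at the 3 temperatures. Thioredoxin F2 gene Eucgr.B01424, whose product activates enzymes of carbon fixation in light, was at 10.50 at 30 °C in elevated CO2 and 10.29 at 30 °C in ambient CO2, against 8.69 in the E. globulus control, 3.49- and 3.03-fold higher. In E. grandis it was at 10.57 at 30 °C in elevated CO2, against 8.89, 3.21-fold higher.

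Summed markers of green tissue had the same order with temperature as these thioredoxins in E. globulus in ambient CO2, but not every step of the thioredoxins reached 2-fold. Eucgr.B01424 was at 8.43 at 10 °C against 8.69 at 20 °C, and Eucgr.A02077 at 12.74 at 30 °C against 12.40 at 20 °C. Of 21 listed genes for photosystem subunits, light-harvesting proteins and the small Rubisco subunit, 20 stand in the E. globulus table of 3 temperatures. Their summed level was 15.4, 16.3 and 17.2 on the log2 scale at 10, 20 and 30 °C, with 1 gene at 0 at 10 °C and none in the other groups. Of these, 9 were lower at 10 °C, 7 were higher at 30 °C and 9 were higher at 30 °C in elevated CO2, beside 14.4%, 22.7% and 29.9% of all listed genes. The part of green tissue in the values of the redox genes was not tested. Secondary wall xylem markers, which define woody stem, were present: 8 of 9 stand in that table, none at 0, with a summed level of 11.9, 12.4 and 11.6 at 10, 20 and 30 °C.

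The remaining thioredoxins differed among themselves. Thioredoxin 2 gene Eucgr.B02586 was at 12.28 and 11.89 at 10 and 20 °C in elevated CO2 and 11.86 at 10 °C in ambient CO2, against 10.48 in the E. globulus control, 3.48-, 2.66- and 2.60-fold higher. In E. grandis it was at 12.47 at 10 °C in elevated CO2, against 10.51, 3.87-fold higher. A second gene described as thioredoxin 2, Eucgr.I01912, was below the control of 7.07 in each group listed with it. It was at 5.80 and 4.68 at 10 and 30 °C in elevated CO2 and at 5.88 and 5.51 at 10 and 30 °C in ambient CO2. Its 6.04 at 20 °C in elevated CO2 stands only in the table that pairs the species. Thioredoxin H-type 1 gene Eucgr.F01854, of the cytosolic class that takes electrons from NADPH through thioredoxin reductase, was at 11.77 at 30 °C in elevated CO2, 13.0-fold above the control, and at 9.35, 8.07 and 10.59 at 10, 20 and 30 °C in ambient CO2. The NADPH-dependent thioredoxin reductase gene Eucgr.J02565 was at 10.90 in both 30 °C groups, against 9.74 in the control, 2.23-fold higher. The other thioredoxin reductase gene, Eucgr.J00323 (ferredoxin/thioredoxin reductase), had a lower value at 30 °C. It was at 8.15, 7.26 and 6.28 at 10, 20 and 30 °C in ambient CO2, neither end 2-fold from the control. At 10 °C in elevated CO2 it was at 8.59, more than 2-fold higher than the control. Opposite directions at 10 and 30 °C were seen in 4 of the 10 other redox genes that differed at both, Eucgr.C03055, Eucgr.H03860, Eucgr.K02483 and Eucgr.K03442, and in 339 of 1759 such genes among all listed. Of these only Eucgr.C03055 was higher in the cold, at 10.66, 9.39 and 7.86 at 10, 20 and 30 °C.

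No glutaredoxin was higher than the control in E. globulus in ambient CO2. At 10 °C, 4 of the 10 were lower, beside 14.4% of all listed genes lower and 17.1% higher. At 30 °C, 3 were lower, beside 14.8% lower and 22.7% higher. Between 30 and 10 °C, 2 differed, beside 23.9% of all listed genes higher and 18.4% lower. Eucgr.B01274 was higher, at 4.76 at 30 °C against 2.42 at 10 °C, and Eucgr.G03082 lower, at 3.31 against 4.40. At 30 °C in elevated CO2, 2 were higher and 1 lower, beside 29.9% and 16.2%. Eucgr.H01202 was lower on both sides, at 8.70 at 30 °C in elevated CO2 (5.53-fold) and at 10.12 and 9.79 at 10 and 30 °C in ambient CO2, against 11.17 in the control. Eucgr.D01761 was higher in both species at 30 °C in elevated CO2, at 10.09 against 8.23 in E. globulus and at 10.37 against 7.58 in E. grandis, 3.63- and 6.87-fold. Eucgr.I01935 was lower at 10 °C in both, at 4.38 against 5.44 in E. globulus and at 2.56 against 4.99 in E. grandis, 2.09- and 5.38-fold.

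**Figure D4:**
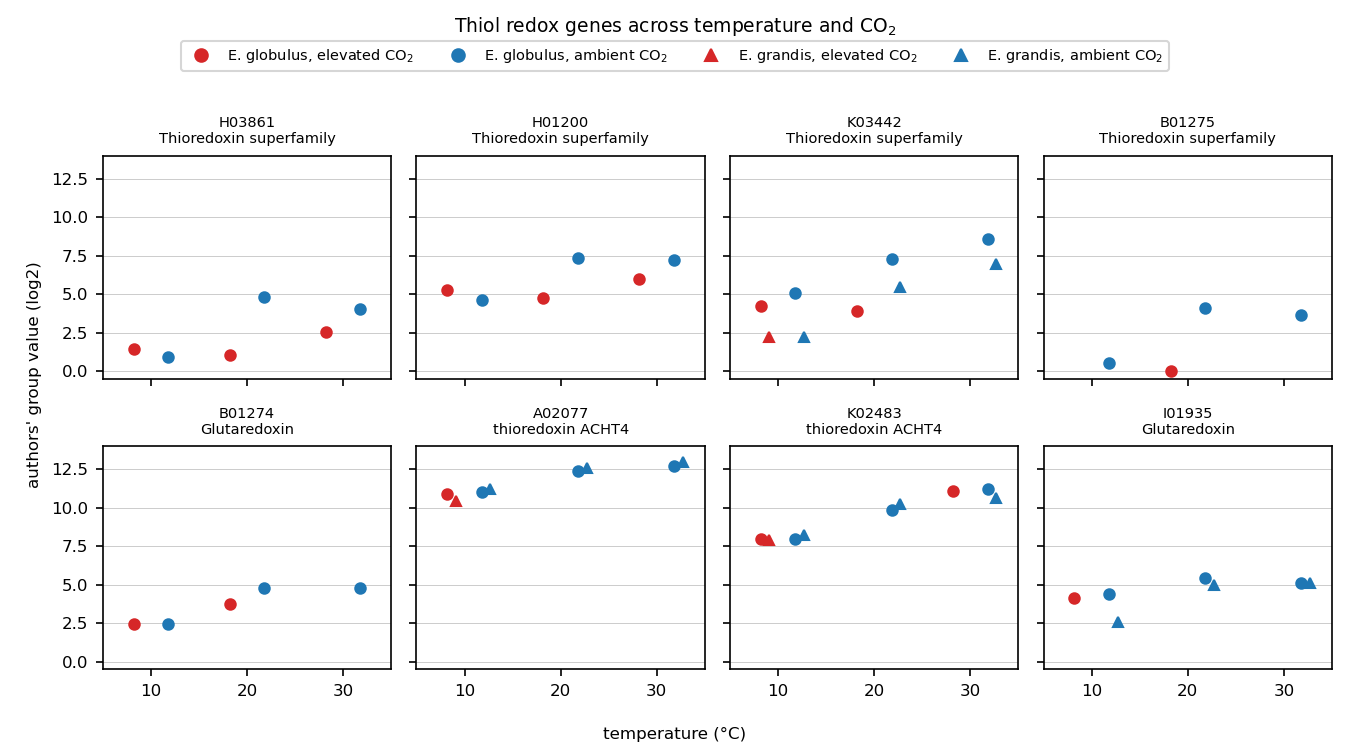
Authors' group values (log2, y axis) by temperature for 8 thioredoxin superfamily, glutaredoxin and thioredoxin genes, in elevated CO2 (red, left) and ambient CO2 (blue, right) in E. globulus (circles) and E. grandis (triangles); a missing point means that the gene is not listed with that group. Every 10 °C value of Eucgr.K03442 lies below the 20 °C ambient value of its species, and Eucgr.H03861, Eucgr.H01200, Eucgr.K03442, Eucgr.B01275 and Eucgr.B01274 are also lower at 20 °C in elevated CO2.

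In E. grandis few members were listed in ambient CO2. At 10 °C, 2 glutathione transferases and 4 other redox genes were lower and none higher, beside 2.00% and 1.20% of all listed genes. At 30 °C only Eucgr.K03442 differed from 20 °C, at 6.95 against 5.47, 2.79-fold higher; 0.854% of all listed genes were higher and 0.490% lower. Between 30 and 10 °C, 1 glutathione transferase and 4 other redox genes were higher, beside 2.53% of all listed genes, and no member was lower, beside 1.45%. TAU 19 gene Eucgr.L01482 was that glutathione transferase. In elevated CO2 it stood at 7.29 and 8.03 at 10 and 30 °C, 4.05- and 2.42-fold below the control, and in ambient CO2 at 7.05, 9.30 and 8.88 at 10, 20 and 30 °C. In E. globulus it was at 7.62, 8.29 and 9.44 at 10, 20 and 30 °C.

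The E. grandis lists in elevated CO2 were longer. They were selected by another test than the ambient lists, so test and treatment cannot be told apart in their length. At 10 °C in elevated CO2, 4 glutathione transferases were higher and 4 lower, and 5 other redox genes were higher and 6 lower, beside 3.91% and 9.20% of all listed genes. Thioredoxin superfamily gene Eucgr.K01064 was at 7.38 there, against 10.36, 7.87-fold lower. In E. globulus it was at 9.25, 8.73 and 10.57 at 10, 20 and 30 °C in ambient CO2. This was 3.60-fold higher than the control at 30 °C and less than 2-fold from it at 10 °C. The E. globulus group at 10 °C in elevated CO2 has no value for it. At 30 °C in elevated CO2, 1 glutathione transferase was higher and 3 lower, and 3 other redox genes were higher and 1 lower, beside 4.89% and 3.43% of all listed genes. The higher glutathione transferase was phi 12 gene Eucgr.F02915. Of the lower ones, TAU 8 gene Eucgr.L01417 was at 5.55 against 7.08 in the control, 2.89-fold, whereas in E. globulus it was at 8.31 against 6.38 in the same comparison, 3.80-fold higher.

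Set side by side, the members changed in both species in the same contrast mostly shared their direction. At 30 °C in elevated CO2 the other redox genes changed in both were Eucgr.B01424, Eucgr.D01761, Eucgr.F01775 and Eucgr.F02538, which are 4 of 34 in E. globulus and 4 of 4 in E. grandis, all in the same direction. At 10 °C in elevated CO2 they were Eucgr.A02077, Eucgr.B02586, Eucgr.C03055, Eucgr.F02538, Eucgr.K02483 and Eucgr.K03442, 6 of 19 in E. globulus and 6 of 11 in E. grandis, again all in the same direction. Over all listed genes at 30 °C in elevated CO2, 425 were changed in both species, 7.81% of those in E. globulus and 43.2% of those in E. grandis, and 392 shared their direction. The number at 10 °C in elevated CO2 was 461, 13.7% and 29.7%, of which 407 shared their direction. Among glutathione transferases, Eucgr.K03192 was the 1 changed in both at 10 °C in elevated CO2, higher in both, and Eucgr.L01417 the 1 changed in both at 30 °C, in opposite directions.

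**Figure D5:**
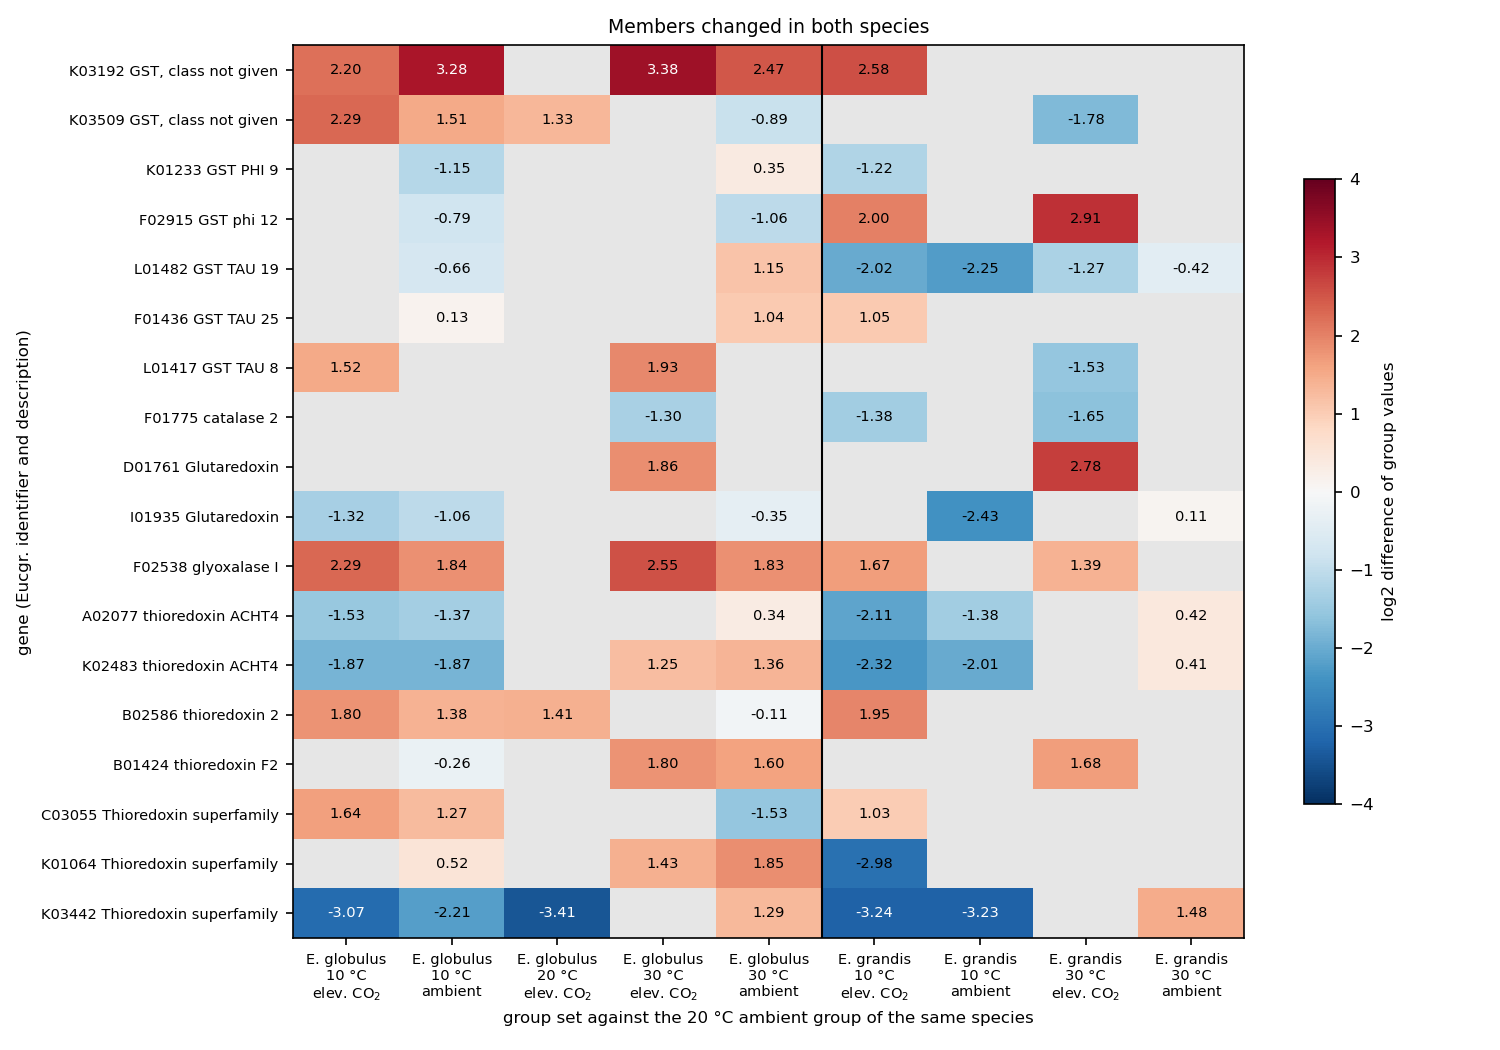
Log2 difference of group values from the 20 °C ambient control of the same species (colour and printed value) for the 18 members at least 2-fold different in both species, with E. globulus groups left of the black line and E. grandis groups right of it; grey cells are genes not listed in that table, and values between -1 and 1 are below 2-fold. Eucgr.K03442, Eucgr.A02077 and Eucgr.K02483 are negative in each 10 °C column of both species, and at 30 °C in elevated CO2 Eucgr.L01417 is positive in E. globulus and negative in E. grandis.

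Redox genes that the rule does not take in were counted from a list of 54. Among them were formate dehydrogenases, ferritins, alternative oxidases, aldehyde dehydrogenases and multidrug resistance-associated proteins. Only some of the last family are known to carry glutathione conjugates into the vacuole. In E. globulus at 10 °C in ambient CO2, 16 of the 54 were higher and 8 lower, beside 17.1% and 14.4% of all listed genes. At 30 °C 9 were higher and 6 lower, beside 22.7% and 14.8%. At 30 °C in elevated CO2, 11 were higher and 13 lower, beside 29.9% and 16.2%. The 20 multidrug resistance-associated proteins had 8 higher and 5 lower at 10 °C, none higher and 4 lower at 30 °C, and none higher and 7 lower at 30 °C in elevated CO2, to be read beside the same 3 pairs of shares. Formate dehydrogenase gene Eucgr.J02208 was at 9.96 at 10 °C in elevated CO2 and at 9.73, 3.68 and 5.97 at 10, 20 and 30 °C in ambient CO2. Ferritin 4 gene Eucgr.K02961, an iron store of plastids, was at 9.66 at both 10 and 30 °C, against 7.36 at 20 °C.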

How the data were processed

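Per the labels' protocols, stem RNA came from a CTAB extraction and went into Illumina libraries. The submitters' processing notes name Bowtie2 and DESeq, with neither role nor version. No source used here gives the genome build, gene models or counting rule. The deposited tables hold the authors' log2 group values, a log2 fold change, its absolute fold (a ratio) and a signed fold (a score) per pair. Per the file headers, genes were selected by a moderated test or, for 3 temperatures, a one-way analysis, at a corrected p of 0.05 and a fold of at least 2. A total of 8144 of 8144 repeated group values were equal across tables (tolerance 0.0001).

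Differences were recomputed here from the group values with Python 3.11.15 and pandas 2.3.3; figures used matplotlib 3.10.9. A check on simulated data covered only the 2-fold limit and the sorting of descriptions into subgroups. It did not cover the reading, merging and counting of the deposited values. A member was counted where listed and at least 1 apart on log2, planned with no test because no sample values are given. Medians leave out genes with a group at 0. The members, gene lists and other settings were chosen with earlier results of these data known. Genes were named as the highest and lowest of each subgroup per comparison, those changed in both species or most often, and those opposite at 10 and 30 °C; others, chiefly within loci (members of 1 sequence ending within 100 kb of the next), the pathway genes and several further members, were chosen after their values were seen. The alternatives were a 4-fold limit, counting genes of 1 description once, leaving out genes with a group at 0 and leaving out descriptions of other proteins; 1 more, leaving out genes under 5 in both groups, was added after the data were seen.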

Additional observations from a re-analysis of the deposited data

How the results depend on the processing

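No paired analysis was possible because the deposited columns hold 1 value per group and carry no replicate numbers; for the same reason leaving out a replicate, another normalization and another pseudocount were not run. All 22 counts of changed members were within 1.5 times of their value when genes with a group at 0 were left out. Leaving out descriptions of other proteins removed only the glyoxalase I genes, so the counts of glutathione transferases could not change. The counts of other redox genes stayed within 1.5 times. In E. globulus they fell from 28 to 23 at 30 °C and from 34 to 28 at 30 °C in elevated CO2.

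A 4-fold limit, which keeps fewer genes, moved 18 counts by more than 1.5 times and turned the direction of 1. For glutathione transferases in E. globulus it left 9 at 10 °C, 3 at 30 °C, 9 between 30 and 10 °C, 1 at 20 °C in elevated CO2, 9 at 10 °C in elevated CO2 and 23 (22 higher, 1 lower) at 30 °C in elevated CO2. For the other redox genes in the same order it left 6, 4, 11, 5, 5 and 16. In E. grandis it left 1 glutathione transferase at 10 °C and 0 between 30 and 10 °C, 3 at 10 °C in elevated CO2 and 1 at 30 °C in elevated CO2, where 1 higher against 0 lower turned the direction of 1 against 3. It left 0 other redox genes at 30 °C, 5 at 10 °C in elevated CO2 and 1 at 30 °C in elevated CO2.

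Counting each description once, by its median, moved 10 counts by more than 1.5 times and turned 1. Glutathione transferases in E. globulus then numbered 6 at 10 °C, 6 at 30 °C, 4 at 10 °C in elevated CO2 and 8 (7 higher, 1 lower) at 30 °C in elevated CO2; between 30 and 10 °C they numbered 10, with 6 higher and 4 lower against 11 and 13. The other redox genes numbered 6, 12, 12, 4, 6 and 14 in the order above. Their lean towards lower values ended: 3 were higher and 3 lower at 10 °C, against 7 and 15, 2 and 2 at 20 °C in elevated CO2, against 3 and 5, and 3 and 3 at 10 °C in elevated CO2, against 7 and 12.

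With members under 5 in both groups left out, an alternative chosen after seeing the data, 20 counts stayed within 1.5 times. At 20 °C in elevated CO2 in E. globulus, glutathione transferases fell to 0, against 2, and other redox genes to 5, with 3 higher and 2 lower against 3 and 5, because Eucgr.H03861 and other low-level genes drop out. No depth is given, so what depth limits cannot be stated.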

Other observations

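One deposited table pairs E. globulus at 20 °C in elevated CO2 with E. grandis at 20 °C in ambient CO2, so species and CO2 cannot be told apart in it. It lists 10 glutathione transferases, 1 higher and 9 lower in E. globulus, and 7 other redox genes, 3 higher and 4 lower, among 2352 genes of which 841 were higher and 1511 lower. TAU 19 gene Eucgr.A00653 was listed at 0 in E. globulus in elevated CO2 and at 5.94 in E. grandis, and tau 4 gene Eucgr.F00394 at 0 and 3.46. Both ascorbate peroxidase 3 genes listed were near the floor in E. globulus: Eucgr.C02673 was at 0.27 against 3.60 in E. grandis, and Eucgr.E00760 at 0.26 against 3.23. TAU 25 gene Eucgr.F01436 was at 3.77 in E. globulus in elevated CO2 and 7.22 in E. grandis. The same gene identifiers serve both species. In the other direction, Fe superoxide dismutase 2 gene Eucgr.L03200 was at 9.91 in E. globulus in elevated CO2 and 6.74 in E. grandis; within E. globulus it was at 9.91 against 5.69 in the control. These values were singled out after they were seen.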
